A study of Homo sapiens with 10 samples.

Results

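This account covers 10 genes of the microRNA pathway in HEK293 nuclei: DROSHA, DGCR8, XPO5, DICER1, AGO1, AGO2, AGO3, TNRC6A, TNRC6B and TNRC6C. They were taken by name from a deposited gene table of 241080 loci, of which 54389 carry a gene symbol. Each of the 10 genes had 1 row, and all 10 rows had the status OK, which means that the authors' software tested them. For 8 genes the row names that gene alone. DGCR8 stood in a row merged with MIR1306 and MIR3618, and TNRC6C in a row merged with AC021593.1, so those values belong to the merged loci.

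HEK293 cells come from human embryonic kidney and grow attached to the dish. After lysis of the cells with detergent, the nuclei of 3 biological replicates were split into a soluble fraction (soluble nuclear extract, SNE, 3 samples) and the pelleted chromatin (chromatin pellet extract, CPE, 3 samples), with no drug named for either in the labels. All libraries were stranded and made from total RNA. DRB-treated pellets (2 samples) and mock-treated pellets (2 samples) were not analysed here. The table gives 1 FPKM value (fragments per kilobase of transcript, scaled to the fragments of the library) per group. The spread among the 3 replicates can therefore not be seen, and the depth of each library was unknown. These are bulk extracts, so RNA from fewer nuclei and less RNA per nucleus cannot be told apart. By its title, the study contrasts RNA held on chromatin with RNA free in the nucleus.

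MicroRNAs are cut from primary transcripts in the nucleus by the Microprocessor, a complex of the ribonuclease DROSHA and its RNA-binding partner DGCR8. The precursor hairpin leaves the nucleus on exportin-5, the product of XPO5, and is cut again by DICER1 in the cytoplasm. An Argonaute protein then holds the mature strand, and a TNRC6 protein bound to Argonaute recruits the enzymes that remove poly(A) tails and silence the target. The transcripts described below are the RNAs that encode these proteins. They do not measure the proteins or their activity.

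MicroRNA genes lie within 2 of the 10 genes, and their mature sequences are shown because they mark what the merged DGCR8 row contains and what the DICER1 locus carries. The sequences are from RefSeq on GRCh38.p14, written 5′ to 3′, with the seed (bases 2 to 8) in capitals.
hsa-miR-3618: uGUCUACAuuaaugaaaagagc
hsa-miR-1306-5p: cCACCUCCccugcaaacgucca
hsa-miR-1306-3p: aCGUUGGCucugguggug
hsa-miR-3173-5p: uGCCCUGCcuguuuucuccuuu
hsa-miR-3173-3p: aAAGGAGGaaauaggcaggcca

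The first 3 lie on the same strand as DGCR8 on chromosome 22. MiR-3618 (chr22:20085797-20085818, plus strand) lies in an exon of 3 of the 10 DGCR8 transcripts of GENCODE 29, in the untranslated part. Both arms of miR-1306 (5p at chr22:20086072-20086093 and 3p at chr22:20086112-20086129, plus strand) lie in an exon of 5 of these transcripts, in the coding part of 4. It is known that the Microprocessor cuts the DGCR8 messenger RNA at hairpins in these exons. MiR-3173 (5p at chr14:95137961-95137982 and 3p at chr14:95137923-95137944, minus strand) lies in DICER1 on the same strand, in an exon of 0 of its 15 transcripts. The seeds of miR-3618, miR-1306-5p and miR-1306-3p each occur once among 2545 mature entries of the RefSeq table. The seed of miR-3173-5p is shared with hsa-miR-6799-3p, and that of miR-3173-3p with hsa-miR-12118 and hsa-miR-6891-5p. MIR3173 had a row of its own in the deposited table, listed at 0 in SNE and in CPE and not tested.

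Other genes were first used to describe the fractions. NEAT1 and MALAT1, nuclear RNAs, were 10.8-fold and 2.73-fold more abundant in CPE according to the authors' deposited table (q = 0.000706 for both, the smallest q in that table). Both fractions come from nuclei, so these values do not show how pure either fraction is, and purity was not tested. Of 9 genes chosen as markers of the line, 5 reached an FPKM of 1 in either fraction, with the keratin gene KRT8 at 86.9 in the soluble extract and 18.6 in the pellet, while the kidney factors PAX2 and LHX1 stayed below 1 in both. NEFM and NEFL were at or below 0.120. Of 5 markers of blood, liver, fibroblast and endothelial cells, 4 had a row, and the highest was COL1A1 at 1.45 in SNE. The liver gene ALB, at 0 in the soluble extract and 0.373 in the pellet, was called higher in the chromatin pellet by the authors' deposited table (q = 0.000706). HBB was at 0 in both, and the 4 genes summed to 1.45 in the soluble extract and 1.33 in the pellet. Their part in the ratios below was not tested. The 5 mitochondrially encoded genes chosen to follow mitochondrial RNA were over the software's data limit and gave no value.

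XPO5 and AGO1 were higher in the soluble extract, and the other 8 genes were not called in either direction. A call is a q value of at most 0.05 in the authors' Cuffdiff test over all tested loci. The 2 calls among 10 genes compare with 39.3% of tested loci with a symbol called higher in SNE, and with 52.3% of those at an FPKM of at least 1 in both fractions, a level that all 10 genes reached. No gene of the 10 was higher in CPE (0 also at an unadjusted Cuffdiff p under 0.05), where 1.83% of tested loci with a symbol, and 1.28% of those at that FPKM, were called. On the log2 scale, the median ratio of CPE to SNE was -0.65 over the 10 genes and -1.33 over 11388 loci with a symbol at that level. Below 0 lay 9 of the 10 ratios of the authors' deposited table, and with the median of those 11388 loci set to 0, a shift of -1.33, 8 of the 10 lay above 0. That second scale is called centred below. No test was made on the list, and no centred ratio has a q value.

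**Figure D1:**
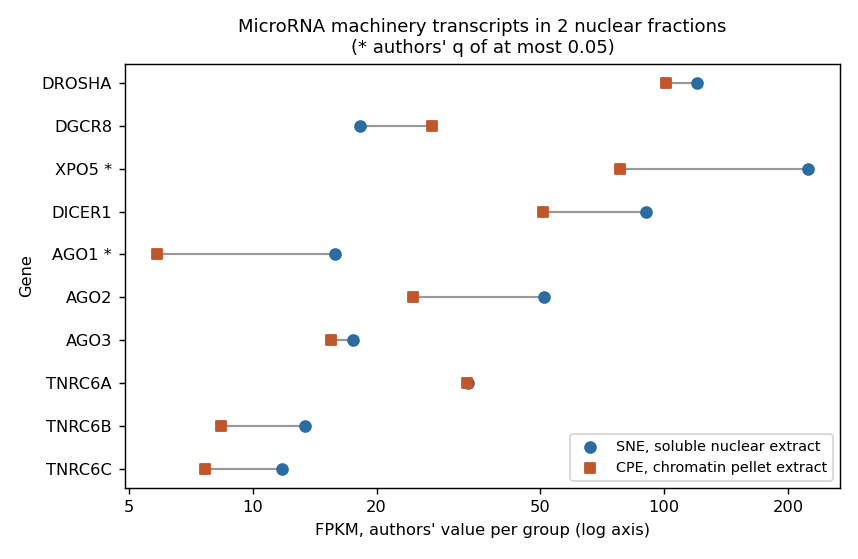
FPKM of each gene in SNE (blue circles) and CPE (orange squares) on a log axis, 1 value per group as the authors deposited it, without error bars since no value per sample was given; an asterisk marks a q of at most 0.05. XPO5 and AGO1 show wide gaps toward SNE, TNRC6A has overlapping points, and DGCR8 is the 1 gene with the CPE value to the right.

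Abundance spanned a 19.0-fold range in SNE and a 17.3-fold range in CPE, on the per-length FPKM scale. In SNE the order from highest to lowest was XPO5, DROSHA, DICER1, AGO2, TNRC6A, DGCR8, AGO3, AGO1, TNRC6B and TNRC6C. In CPE it was DROSHA, XPO5, DICER1, TNRC6A, DGCR8, AGO2, AGO3, TNRC6B, TNRC6C and AGO1. Whether neighbours in these orders differ could not be tested without values per sample.

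The transcripts of the 2 Microprocessor subunits were not called. DROSHA, which encodes the ribonuclease, had an FPKM of 120.1 in the soluble extract and 101.2 in the pellet, a log2 ratio of -0.25 in the authors' deposited table (q = 0.548; region on hg19 chromosome 5, 31397587 to 31532303). The merged row of DGCR8, which encodes the RNA-binding subunit, had 18.2 in the soluble extract and 27.3 in the pellet, a log2 ratio of 0.58 in the authors' deposited table (q = 0.545; chromosome 22, 20067755 to 20135530). It was the 1 gene of the 10 with the larger value in CPE, and its ratio exceeded that of 93.4% of loci with a symbol at an FPKM of at least 1 in both fractions. DROSHA exceeded DGCR8 by 6.59-fold in SNE and 3.71-fold in CPE. Reads of the DGCR8 messenger RNA and of the primary transcripts of MIR1306 and MIR3618 are 1 value in this row and cannot be separated.

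XPO5, the export receptor of precursor hairpins, had the highest SNE value of the 10 genes and the lowest ratio. Its FPKM was 223.6 in the soluble extract and 78.2 in the pellet, 2.86-fold higher in the soluble extract by the authors' deposited table (q = 0.0204; chromosome 6, 43474707 to 43543812). It was not called at a q of at most 0.01. Its centred ratio was -0.18, so it lay near the typical transcript, above 42.3% of the 11388 loci.

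DICER1, which encodes the cytoplasmic ribonuclease that makes the mature duplex, was not called. Its FPKM was 90.4 in the soluble extract and 50.9 in the pellet, a log2 ratio of -0.83 in the authors' deposited table (q = 0.406; chromosome 14, 95544995 to 95646263). That ratio exceeded the ratio of 68.5% of the 11388 loci.

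Among the Argonaute transcripts AGO1 was higher in SNE and AGO2 and AGO3 were not called. AGO1, like its paralogs a protein that holds the mature microRNA, had an FPKM of 15.9 in the soluble extract and 5.86 in the pellet, 2.71-fold higher in the soluble extract by the authors' deposited table (q = 0.000706), and its centred ratio was -0.10. AGO2, the Argonaute known for cutting fully paired targets, had 51.0 in the soluble extract and 24.5 in the pellet, a log2 ratio of -1.06 with p = 0.0457 and q = 0.231 in the authors' deposited table (Cuffdiff; chromosome 8, 141529731 to 141645718). AGO3 had 17.5 in the soluble extract and 15.5 in the pellet, a log2 ratio of -0.18 in the authors' deposited table (q = 0.729).

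AGO1 and AGO3 are neighbours on chromosome 1 and share 1 region of the table (36335409 to 36538263), yet their log2 ratios differed by 1.26. That difference was not tested, since the table gives no values per sample. With AGO4 included, AGO2 made up 54.0% of the summed Argonaute FPKM in SNE and 49.0% in CPE. The share of AGO3 was 18.6% in SNE and 30.9% in CPE, and that of AGO1 was 16.8% and 11.7%. AGO2 was thus the most abundant Argonaute transcript in both fractions, and AGO3 ranked next in both.

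The deposited isoform table could be read for AGO2. Its 11 isoforms summed to an FPKM of 51.0 in the soluble extract and 24.5 in the pellet, the values of the gene table. Of 8 tested isoforms 2 were higher in the soluble extract, 6 had no call and 0 were higher in CPE (0 also at an unadjusted Cuffdiff p under 0.05). Over all tested isoforms, whether or not they sum to their gene, 11% were called higher in SNE and 1.49% higher in CPE. The isoform TCONS_00238437 had 13.3 in the soluble extract and 4.84 in the pellet and was 2.75-fold higher in the soluble extract by the authors' deposited table (q = 0.00411). TCONS_00238435 had 6.25 and 1.95 and was 3.21-fold higher in the soluble extract by the authors' deposited table (q = 0.0302). TCONS_00238438 was close to the first in the soluble extract and above it in the pellet, at 13.3 in the soluble extract and 6.02 in the pellet, and was not called in the authors' deposited table (q = 0.587). The 2 called isoforms together held 38.4% of the AGO2 FPKM in SNE and 27.7% in CPE. An isoform listed at 0 in the soluble extract and 1.96 in the pellet (TCONS_00238440) was not called in the authors' deposited table (q = 0.445). Exon structures of these isoforms were not used here.

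The 3 TNRC6 transcripts, which encode the scaffold proteins that bind Argonaute, were not called. TNRC6A had nearly equal values, 33.5 in the soluble extract and 33.3 in the pellet, a log2 ratio of -0.01 in the authors' deposited table (q = 0.990; chromosome 16, 24741016 to 24838953). TNRC6B had 13.4 in the soluble extract and 8.39 in the pellet, a log2 ratio of -0.68 in the authors' deposited table (q = 0.468; chromosome 22, 40390953 to 40733728). The merged TNRC6C row had 11.8 and 7.68, a log2 ratio of -0.61 in the authors' deposited table (q = 0.456; chromosome 17, 75998262 to 76139049). TNRC6A made up 57.1% of the summed TNRC6 FPKM in SNE and 67.4% in CPE. After centring, the 3 ratios lay at 1.33, 0.65 and 0.72, on the chromatin side of the typical locus.

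**Figure D2:**
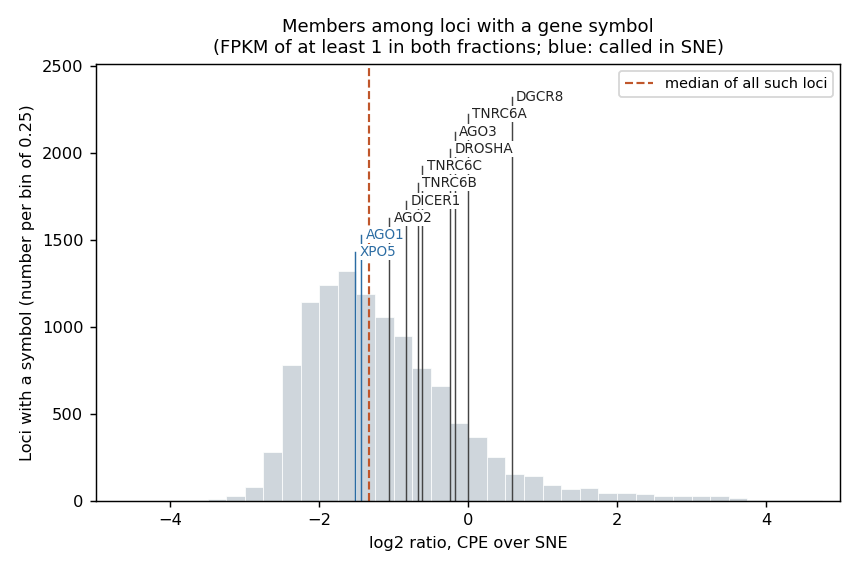
Histogram of the log2 ratio of CPE over SNE for 11388 loci with a symbol and an FPKM of at least 1 in both fractions (number of loci per bin), with a vertical line for each of the 10 genes and a dashed line at the median of all such loci. XPO5 and AGO1 lie just left of the median of -1.33, the other 8 lie right of it, and DGCR8 at 0.58 is farthest right.

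Reads of close relatives could in principle be split between them. Among the transcripts of GENCODE 29, the 10 genes and AGO4 share few stretches of 36 bases with one another, at most 0.110% of a gene's stretches (AGO4). Stretches shared with genes outside this group made up 4.76% for AGO3, 1.46% for TNRC6A, 1.39% for DGCR8 and less for each of the others. For DGCR8 the genes sharing stretches were MIR3618 and MIR1306. No read length is given in the sources used here.

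The ratios were set beside gene length, because among 8088 protein-coding loci longer genes had higher ratios (Spearman's rho 0.41 across genes, which are not independent replicates). Their median log2 ratio was -1.94 in the shortest length decile and -0.65 in the longest. By annotated length the 10 genes are long, from 31.6 kb for DGCR8 to 291.0 kb for TNRC6B. Their median was 123.6 kb, against 39.0 kb for the protein-coding loci. The annotated lengths of TNRC6A (217.4 kb) and TNRC6C (149.6 kb) exceed their regions in the deposited table (97.9 and 140.8 kb). The median length of the 10 genes and their gene-length rho below thus use lengths longer than the measured loci of TNRC6A and TNRC6C. Over the 10 genes the rho was 0.28, as a description of 10 points from the same libraries. With the length of the longest transcript in place of gene length, the rho was 0.42 over the 8088 loci and of the opposite sign over the 10 genes, -0.27.

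Against protein-coding loci of like length (at most 25% longer, or shorter by the same factor), 8 of the 10 genes had a higher ratio than the median and 2, XPO5 and AGO1, a lower one. The loci of like length were rows that name 1 gene, whereas the DGCR8 and TNRC6C rows are merged, so these 2 were not compared with rows of their kind. The merged DGCR8 row stood farthest, 2.09 above the median of -1.51 of 1086 loci of like length, of which 69.2% were called higher in SNE. AGO3, TNRC6A and DROSHA lay 0.86, 0.82 and 0.80 above the medians of their length. TNRC6A was matched at its annotated 217.4 kb, longer than its region in the deposited table (97.9 kb). In the length decile of 76.7 to 113.9 kb, the median ratio of protein-coding loci was -1.17. The difference of TNRC6A and its rank here therefore depend on the length used. TNRC6C was also matched at a length beyond its region. AGO2 and TNRC6B lay within 0.12 of theirs, and XPO5 and AGO1 lay 0.22 and 0.12 below. The median of these 10 differences was 0.44, and the list's median exceeded that of the 11388 loci with a symbol by 0.69. These 2 values have different references, since the 11388 loci also include merged rows and loci not matched to a protein-coding gene. The gap between them is therefore not a measure of length alone. These are descriptions, and the part of length in the ratios was not tested.

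**Figure D3:**
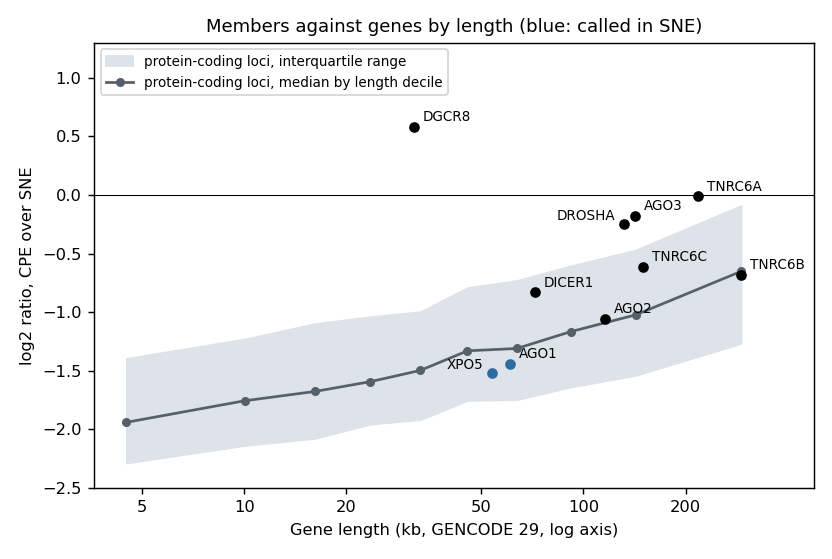
Log2 ratio of CPE over SNE against gene length in kb (log axis). The grey line and band give the median and interquartile range of 8088 protein-coding loci by length decile, and points are the 10 genes (blue for a call in SNE). TNRC6A and TNRC6C are drawn at annotated lengths that exceed their regions in the deposited table. DGCR8 stands well above the band at its length, while XPO5, AGO1, AGO2 and TNRC6B lie close to the line.

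The regions that hold these genes also hold loci without a symbol, and those tested had the larger value in CPE. Of the 10 genes themselves, 9 had the larger value in SNE, TNRC6A only slightly, and DGCR8 had it in CPE. The table gives each locus the region of its whole cluster of overlapping loci, so the position of each such locus inside or outside the gene was not known. The sources used here do not give the definition of such loci. In 9 regions (AGO1 and AGO3 share 1) there were 230 such loci, of which 225 were tested. The value in CPE exceeded that in SNE at all 225, as it did at 97.3% of all 174660 tested loci without a symbol. Their median log2 ratio was 2.87, and 15 (6.67%) were called higher in CPE. Of all tested loci without a symbol, 9.45% were called higher in CPE, and their median was 3.33, so the direction and the share called in these regions are near the background. Called higher in SNE were 0 of the 225 (0 also at an unadjusted Cuffdiff p under 0.05), against 0.63% over the whole table. Every one of the 225 had a higher ratio than the gene or genes of its region.

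In the soluble extract, 0 of these loci exceeded the gene or genes of their region. In the pellet 3 of the 27 in the region of AGO1 and AGO3 exceeded AGO1, the highest at 9.31 against 5.86, and 1 of the 67 in the TNRC6B region exceeded TNRC6B, at 13.9 against 8.39. In the DROSHA region 26 such loci had a median FPKM of 0.495 in the soluble extract and 3.89 in the pellet, against 120.1 and 101.2 for DROSHA itself. The one with the highest CPE value had 1.11 in the soluble extract and 10.02 in the pellet and was higher in CPE by a log2 ratio of 3.17 in the authors' deposited table (q = 0.000706). The DICER1 region had the highest median ratio, 3.37 over 15 loci, and its locus with the highest CPE value had 2.10 in the soluble extract and 15.5 in the pellet, 7.37-fold higher in the chromatin pellet by the authors' deposited table (q = 0.000706). In the TNRC6A region, whose gene had nearly equal values in both fractions, the median over 16 loci was 2.53 and 2 were called, 1 of them at 3.37 in the soluble extract and 12.2 in the pellet.

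The DGCR8 region had the lowest median, 1.97 over 14 loci, and its gene the highest ratio, so gene and region median were closest there, 1.39 apart. For the other 9 genes that distance ran from 2.54 for TNRC6A to 4.20 for DICER1. The TNRC6B region, the longest at 342.8 kb, held 67 tested loci of which 1 was called, with 2.26 in the soluble extract and 13.9 in the pellet. The 22 tested loci of the AGO2 region had a median ratio of 2.19 and 0 were called in either direction by the Cuffdiff q of the authors' deposited table (1 toward CPE and 0 toward SNE at an unadjusted p under 0.05). The regions of XPO5, of AGO1 with AGO3, and of TNRC6C had medians of 2.29, 2.52 and 2.93, with 1, 2 and 3 loci called higher in CPE.

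**Figure D4:**
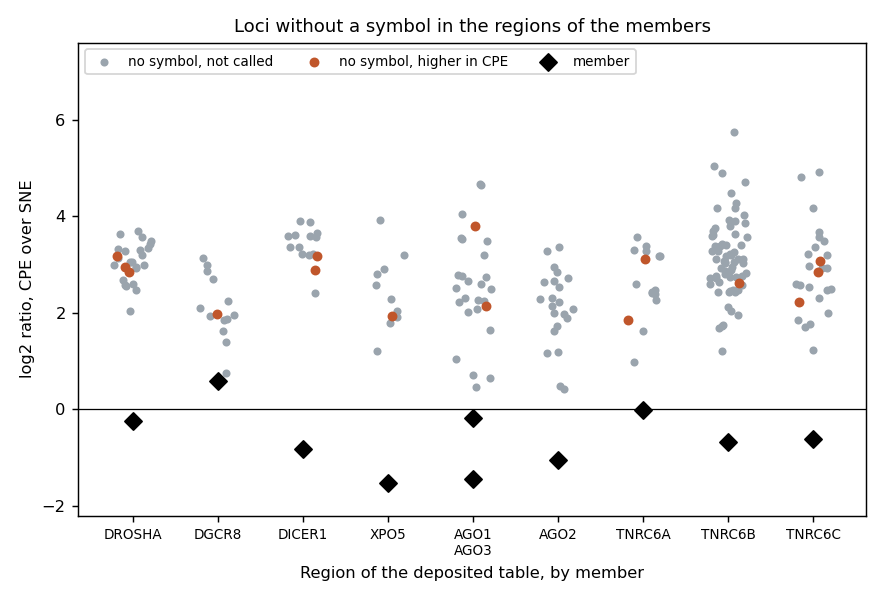
Log2 ratio of CPE over SNE for the tested loci of the 9 regions. Diamonds are the 10 genes, grey points are loci without a symbol that were not called, and orange points those called higher in CPE; 1 locus of the TNRC6C region at 0 in SNE has no finite ratio and is not drawn, and other loci with a symbol are left out. Points lie above 0 and above the diamond in each region.

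Partners of these 10 genes were followed in 5 lists with 68 genes, of which 67 had a row and 63 were tested. Higher in SNE were 31, and 32 were not called. None was higher in CPE by the authors' Cuffdiff q (0 also at an unadjusted p under 0.05). The share called in SNE, 49.2%, compares with 39.3% of tested loci with a symbol. At an FPKM of at least 1 in both fractions, 30 of 60 partners were called in SNE, against 52.3% of loci with a symbol at that level, so the share is near the background. The median log2 ratio of 60 partners at an FPKM of at least 1 in both fractions was -1.24, against -0.65 for the 10 core genes and -1.33 for loci with a symbol at that level. Centred, the ratios of 32 of these 60 lay above 0.

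Of 16 partners of the Microprocessor 9 (56.2%) were higher in the soluble extract and 7 had no call, with a median of -1.10 (0.23 when centred). All 16 had an FPKM of at least 1 in both fractions, where 52.3% of loci with a symbol were called higher in SNE, so the share is near the background. ERH, a small protein that binds DGCR8, had 786.4 in the soluble extract and 136.1 in the pellet and was 5.78-fold higher in the soluble extract by the authors' deposited table (q = 0.000706). The helicase DDX5, in a row merged with MIR3064 and MIR5047, had the highest mean of the 2 fractions in the list, at 781.8 in the soluble extract and 1065 in the pellet, and was not called in the authors' deposited table (log2 ratio 0.45, q = 0.609). Like DGCR8, it thus had the larger value in CPE in a row that also names microRNA genes.

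The list of export and precursor regulators had 8 tested genes, of which 3 were higher in the soluble extract and 5 had no call. At an FPKM of at least 1 in both fractions, 3 of 7 (42.9%) were called higher in SNE, against 52.3% of loci with a symbol. The median over these 7 genes was -0.46 (0.88 when centred), the highest of the lists with more than 1 gene at the FPKM minimum. Of the 7 ratios 4 lay below 0 and 3 above, with none called higher in CPE. RAN, the GTPase that drives exportin-5 transport, had 953.7 in the soluble extract and 223.4 in the pellet, 4.27-fold higher in the soluble extract by the authors' deposited table (q = 0.000706). The RNA editing enzyme ADAR had 89.0 and 30.7 and was 2.90-fold higher in the soluble extract by the authors' deposited table (q = 0.000706). XPO5 and RAN, receptor and GTPase of the same transport step, were both called in SNE. At an FPKM of at least 1 in both fractions, 52.3% of loci with a symbol had that call.

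Of 9 tested partners of DICER1 and chaperones that load Argonaute, 7 (77.8%) were higher in SNE, with a median of -1.73 (-0.40 when centred). All 9 had an FPKM of at least 1 in both fractions, where 52.3% of loci with a symbol were called higher in SNE. Not called were the DICER1 partners TARBP2 and PRKRA (log2 ratios -0.49 and -0.69, q = 0.494 and 0.103 in the authors' deposited table). The chaperone HSP90AB1 had 697.2 in the soluble extract and 152.0 in the pellet, 4.59-fold higher in the soluble extract by the authors' deposited table (q = 0.000706). Its activator AHSA1 had 502.6 and 109.6, also 4.59-fold higher in the soluble extract by the authors' deposited table (q = 0.000706). TSN, the translin subunit of a ribonuclease that removes passenger strands, had 79.0 and 15.6 and was 5.06-fold higher in the soluble extract by the authors' deposited table (q = 0.000706). HSPA8 had the status FAIL and was not tested.

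AGO4, the remaining Argonaute, had 9.98 in the soluble extract and 4.20 in the pellet and was not called in the authors' deposited table (log2 ratio -1.25, q = 0.154). PIWIL4, of the germline PIWI branch, stood in a row merged with FUT4 at 0.539 and 0.281 and was not called in the authors' deposited table (q = 0.524). The other 3 PIWI genes were not tested and lay at or below 0.0705 in both fractions.

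Of 28 effectors that act with TNRC6 proteins or in P bodies, 12 (42.9%) were higher in the soluble extract and 16 had no call. Over all tested loci with a symbol, 39.3% were called higher in SNE. At an FPKM of at least 1 in both fractions, 11 of 27 effectors (40.7%) had that call, against 52.3% of loci with a symbol. The median over these 27 genes was -1.20 (0.13 when centred). CNOT3, a subunit of the CCR4-NOT deadenylase, had 13.5 in the soluble extract and 3.00 in the pellet, 4.51-fold higher in the soluble extract by the authors' deposited table (q = 0.000706). PABPC1, the poly(A) binding protein, had 293.5 and 86.4 and was 3.40-fold higher in the soluble extract by the authors' deposited table (q = 0.000706). PAN2, a poly(A) nuclease, stood in a row merged with CS, CNPY2 and RP11-977G19.10, which was 2.96-fold higher in the soluble extract by the authors' deposited table (q = 0.000706), so that value is not of PAN2 alone.

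**Figure D5:**
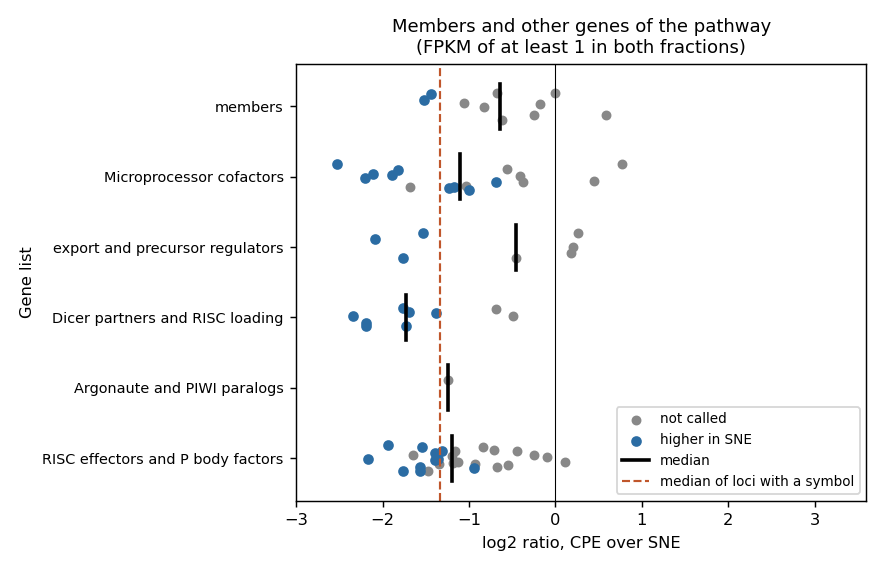
Log2 ratio of CPE over SNE of the 10 core genes (top row) and of the partner lists, for genes at an FPKM of at least 1 in both fractions. Blue points were higher in SNE, grey points were not called and black bars are list medians. The dashed line is the median of loci with a symbol at that level, -1.33. Right of that line lie 8 of the 10 core genes. Of the 9 genes in the list of DICER1 partners and chaperones that load Argonaute, 2 lie right of it, TARBP2 and PRKRA.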

How the data were processed

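Nuclear RNA of HEK293 cells was sequenced in 10 samples. The submitters' processing notes name TopHat2, Cuffdiff and hg19. The sources used here give no tool version, setting, annotation or scaling of libraries, so the scale shared by all loci is reported both as deposited and centred. The deposited tables hold the authors' FPKM for SNE and CPE, 1 value per group. They also hold the authors' log2 ratio and their p-value and q-value. Depth was unknown, so no interval was derived. Region starts are printed counted from 1.

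The 10 genes and the partner lists were chosen with earlier results of these data known. Every core gene was named. Of each partner list, the 2 tested genes of highest mean FPKM and the called gene of largest absolute ratio in each direction were named. TARBP2 and PRKRA were named as the 2 tested genes of their list without a call. The call rule (status OK, q of at most 0.05) matched the table's significance mark with 0 differences and was tested on simulated data. Lengths, exons and 36-base stretches came from GENCODE 29, whose coordinates are on another build. A length was found for 88.3% of 10065 loci with 1 symbol and an FPKM of at least 1 in both fractions. Isoform values of a gene were used only where they summed to the gene value within 0.1%, which held for 2361 of 2947 tested loci with a symbol and isoform rows, AGO2 among them, and for 585 of 169774 loci without a symbol. The background share of called isoforms covers all tested isoforms without this condition. The values of 1 marker gene are not reported here. Python 3.11.15, pandas 2.3.3 and scipy 1.17.1 were used. The alternatives tried were the stricter q of 0.01, an absolute log2 ratio of at least 1, an FPKM minimum of 1, rows with 1 gene, pseudocounts of 0.1 and 1, and centring.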

Additional observations from a re-analysis of the deposited data

How the results depend on the processing

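At a q of at most 0.01, 1 of the 10 genes (AGO1) was higher in SNE, and XPO5 was no longer called. A minimum absolute log2 ratio of 1, an FPKM of at least 1 in both fractions and rows that name 1 gene each left the count at 2. The count higher in CPE was 0 under all of these. The partner count in SNE ran from 26 (q of at most 0.01) to 31, and its CPE count stayed at 0. The median log2 ratio of the 10 genes was 0.69 on the centred scale and -0.75 over rows that name 1 gene, and it was -0.64 and -0.59 with pseudocounts of 0.1 and 1. A pseudocount of 1 moved the ratio of AGO1 by 0.14, more than that of any other gene of the 10. No paired analysis was possible because the table holds no value per sample, and leaving out a replicate was not run for the same reason. Depth per library was unknown, so what depth limits could not be stated.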

Other observations

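Other loci with a symbol share regions with these genes. Next to DGCR8, the merged row of RANBP1 and the small nucleolar RNA SNORA77 had an FPKM of 638.1 in the soluble extract and 16109 in the pellet, 25.2-fold higher in the chromatin pellet by the authors' deposited table (q = 0.000706). In the same region the merged row of TRMT2A had 143.7 and 92.9 and ZDHHC8 had 13.9 and 7.13, and the authors' deposited table called neither (q = 0.246 and 0.495). In the XPO5 region POLR1C, a subunit of RNA polymerases I and III, had 51.0 in the soluble extract and 21.0 in the pellet and was 2.43-fold higher in the soluble extract by the authors' deposited table (q = 0.0295).

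Antisense transcripts of 2 core genes were not called. DICER1-AS1 had 3.30 in the soluble extract and 3.07 in the pellet in the authors' deposited table (log2 ratio -0.10, q = 0.938). TNRC6C-AS1, merged with TMC6, had 9.30 and 5.62 in the authors' deposited table (log2 ratio -0.73, q = 0.493). The sources used here do not say how strand entered the counting, so reads of a gene and its antisense partner may not be fully separated. These loci were named after their values were seen.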
